A study of Mus musculus with 5 samples.

Results

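Phosphoinositide 3-kinase (PI3K) phosphorylates a membrane lipid at the inner face of the cell membrane, and the lipid recruits the kinase AKT, which in turn keeps FoxO transcription factors out of the nucleus. Class I PI3K is a dimer of a catalytic and a regulatory subunit, and its isoforms differ in the receptors that engage them and in the cells that use them. In lymphocytes the δ and γ catalytic subunits are abundant, whereas the α and β ones are found in most tissues. In plasma cells (PCs), the antibody-secreting cells of the B lineage, PI3K was examined in this study as a signal received from stromal cell contact. The genes described here encode 4 catalytic subunits (Pik3ca, Pik3cb, Pik3cd and Pik3cg, for the α, β, δ and γ isoforms), 3 regulatory subunits (Pik3r1, Pik3r2 and Pik3r5), the transmembrane inhibitor Pik3ip1 and the adaptor Pik3ap1, which links B cell surface receptors to PI3K. They were taken by name, as every probe set whose only gene symbol in the array's annotation is one of these 9 symbols, out of 18193 genes with such a probe set. The rule uses gene names and no measured value, though the genes were chosen with earlier results of these data known. The 9 genes have 25 probe sets.

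PCs came from the bone marrow (BM) of C57BL/6J mice given repeated injections of a chicken gamma globulin conjugate, spelled NP-CCG in the labels. They were taken over 30 days later with magnetic beads, in which B220 and CD49b positive cells were discarded and cells with much CD138 kept. Ex vivo PCs were lysed directly and are represented by 2 arrays, 1 from each of 2 experiments (E1 and E2). Cultured PCs were kept for 3 days on ST2 cells, a mouse BM stromal cell line, with the cytokine APRIL at physiological oxygen and then sorted by flow cytometry, and are represented by 1 array from E1 and 2 arrays from E2 (rep 1 and rep 2). Culture and the sort that followed it cannot be told apart, and no source used here gives the age of the mice, how many were pooled, or whether rep 1 and rep 2 were separate cultures, so p-values may in part measure technical spread.

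The arrays are Affymetrix MG_U430_2 mouse GeneChips, and levels are given as log2 of the deposited RMA intensity. A level depends on the probe set as well as on the transcript, so no probe set was set against another. In bulk RNA of this kind, fewer expressing cells and less RNA per cell cannot be told apart. Median intensities ran from 87.05 to 94.14 per array, and the number of arrays limits the precision. The labelled cell type was checked by its markers. All 13 tested PC markers (such as Sdc1 and Prdm1) were above an intensity of 50 in all 5 arrays, the lowest at a log2 level of 9.21, and their summed intensity was 81063.9 to 86691.5 ex vivo and 77662.5 to 83428.4 in culture. The sum of 28 tested stromal cell markers was 3518.3 to 4030.4 ex vivo, 11551.2 in cultured PCs of E1 and 23820.2 and 24114.8 in those of E2, and 9 of the 28 were under 50 in both ex vivo arrays. Of 13 tested macrophage and monocyte markers, 6 were lower and 1 was higher after culture with the experiment as a block, and their summed intensity was 2183.5 to 2636.6 ex vivo and 1812.1 to 2166.6 in culture. That of 6 neutrophil markers, of which 0 passed, was 504.9 to 700.2 ex vivo and 408.2 to 442.1 in culture. The part of RNA from these cells in the values below was not tested.

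Transcripts of the PI3K subunits were measured above an intensity of 50 in PCs both ex vivo and after culture. Of the 25 probe sets, 22 were at an intensity of at least 50 in all 5 arrays, and each gene except Pik3cb had at least 1 of them. Per single array, 64.6% to 66.2% of all probe sets without controls reached 50. The share that reached it in all 5 arrays is not given here. An intensity of 50 lies below the median of every array. No probe set of the 9 genes passed the test for a change with culture, which 0.0459% of all tested probe sets passed (1.8% with the experiment as a block), and the fitted log2 changes ran from -0.72 for a Pik3r1 probe set to 0.59 for a Pik3ca probe set. The γ catalytic subunit Pik3cg and the adaptor Pik3ap1 were lower after culture on both of their probe sets and in both experiments, by amounts that did not pass the adjusted test. Lower in all 3 changes within an experiment were 9 of the 23 tested probe sets, against 24.9% of all tested. They include 3 of Pik3r1 and the only Pik3r5 probe set. Another 3 were higher in all 3 changes, against 23.1% of all tested. Between the experiments, in contrast, 11 probe sets of 5 genes (Pik3ca, Pik3cb, Pik3cg, Pik3r1 and Pik3r2) differed, as did 26.8% of all tested probe sets. For 3 of these genes the probe sets went in opposite directions. Such a split was found for 6.84% of all genes with 2 or more tested probe sets and 18.9% of those with 4 or more. The 11 calls were lost when either array of E1 or the ex vivo array of E2 was left out. The share of all tested probe sets that passed in those fits is not given here.

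**Figure D1:**
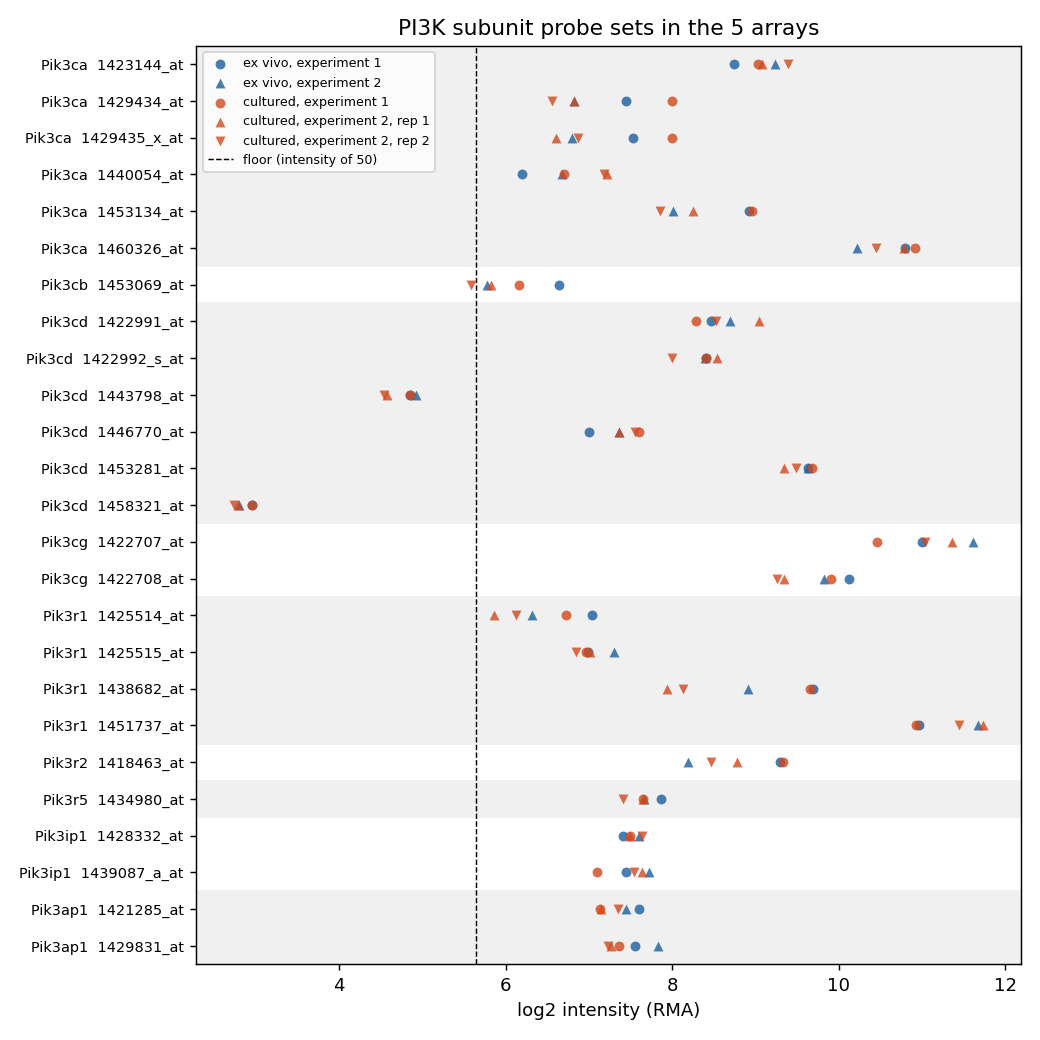
Log2 intensity (RMA, horizontal axis) of the 25 probe sets of the 9 genes in the 5 arrays, ex vivo in blue and cultured in orange, with circles for E1 and triangles for E2. The dashed line is an intensity of 50. A pair of Pik3cd probe sets lies below it in all arrays, and in several rows, such as Pik3r1 1438682_at and Pik3r2 1418463_at, the circles lie apart from the triangles more clearly than blue from orange.

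Sequence next to the transcription starts is shown for genes on which the results below turn. RefSeq (GRCm38.p6) has 13 promoter windows for the 9 genes, each from 250 bases before to 50 bases after a start. They were searched on both strands for the FoxO letters GTAAACA and for the AP-1 letters TGACTCA, since FoxO factors act below PI3K and AP-1 subunits belong to the early response genes. The FoxO letters were in 1 of the 13 windows and in 3.65% of 32851 windows of all genes. The AP-1 letters were in 1 of the 13 and in 5.20% of all windows. The FoxO match lies before the more downstream of the starts of Pik3cg, beginning 92 bases before it on the gene's own strand. The AP-1 match lies before the start of Pik3ca, beginning 97 bases before it, and reads on the opposite strand. Each is printed in 30 bases on the gene's strand with the match in capitals, Pik3cg from chr12:32208544-32208573 (minus strand) and Pik3ca from chr3:32396957-32396986 (plus strand).
Pik3cg: tttttcctaaaGTAAACAaatgatcctcct
Pik3ca: cgcaggcgcagTGAGTCActgttcccgaac
Pik3r1 has 2 starts in this table, and its probe sets disagreed between the experiments, so the last 30 bases before each start are shown with every CG dinucleotide in capitals. The first is chr13:101768218-101768247 and the second is chr13:101692631-101692660, both on the minus strand.
Pik3r1, upstream start: ggggCGcaggggCGggccCGgggtggggct
Pik3r1, downstream start: atctgcccaCGgtggaatgtaccatgctgc
The full window of the upstream start held 34 CG dinucleotides at 75.7% G and C, and that of the downstream start held 6 at 43.7%. The files used here do not tell which start a probe set reads.

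Whether culture with ST2 cells and APRIL changes the mRNA of the PI3K subunits was asked first. To be tested, a probe set had to reach an intensity of 50 in 2 or more arrays, which 23 of the 25 did, and these were fitted with limma among all 30477 that did. With culture as the only term, 0 of the 23 passed an adjusted p of 0.05, against 0.0459% of all tested probe sets, and 1 had an unadjusted p under 0.05 (4.35%, against 6.59% of all). With the experiment as a block, so that cultured PCs are set against ex vivo PCs of the same experiment, 0 of 23 passed, against 1.8% of all, and 5 had an unadjusted p under 0.05 (21.7%, against 18.5% of all). The lowest adjusted p among them was 0.73 without the block and 0.084 with it. The median log2 change without the block was -0.11 for the 23 and -0.02 for all tested probe sets. With the block these medians were -0.07 and -0.02. With the block, the 95% interval of the change lay within 1 on the log2 scale in either direction for 22 of 23 probe sets. Without it this held for 13. A missed threshold does not show that levels were equal, and these intervals bound what was measured.

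The 3 changes of each probe set within an experiment (cultured E1 minus ex vivo E1, and each cultured array of E2 minus ex vivo E2) were compared next. The latter share their ex vivo array. Of the 23 probe sets, 9 were lower in all 3 changes, where 24.9% of all tested probe sets were, and 3 were higher in all 3, where 23.1% were. The other 11 were mixed. All cultured arrays were below both ex vivo arrays for 3 probe sets, against 10.6% of all tested, and above both for 1, against 9.42%. The median size of a change was 0.22 for the 23 and 0.19 for all tested probe sets.

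**Figure D2:**
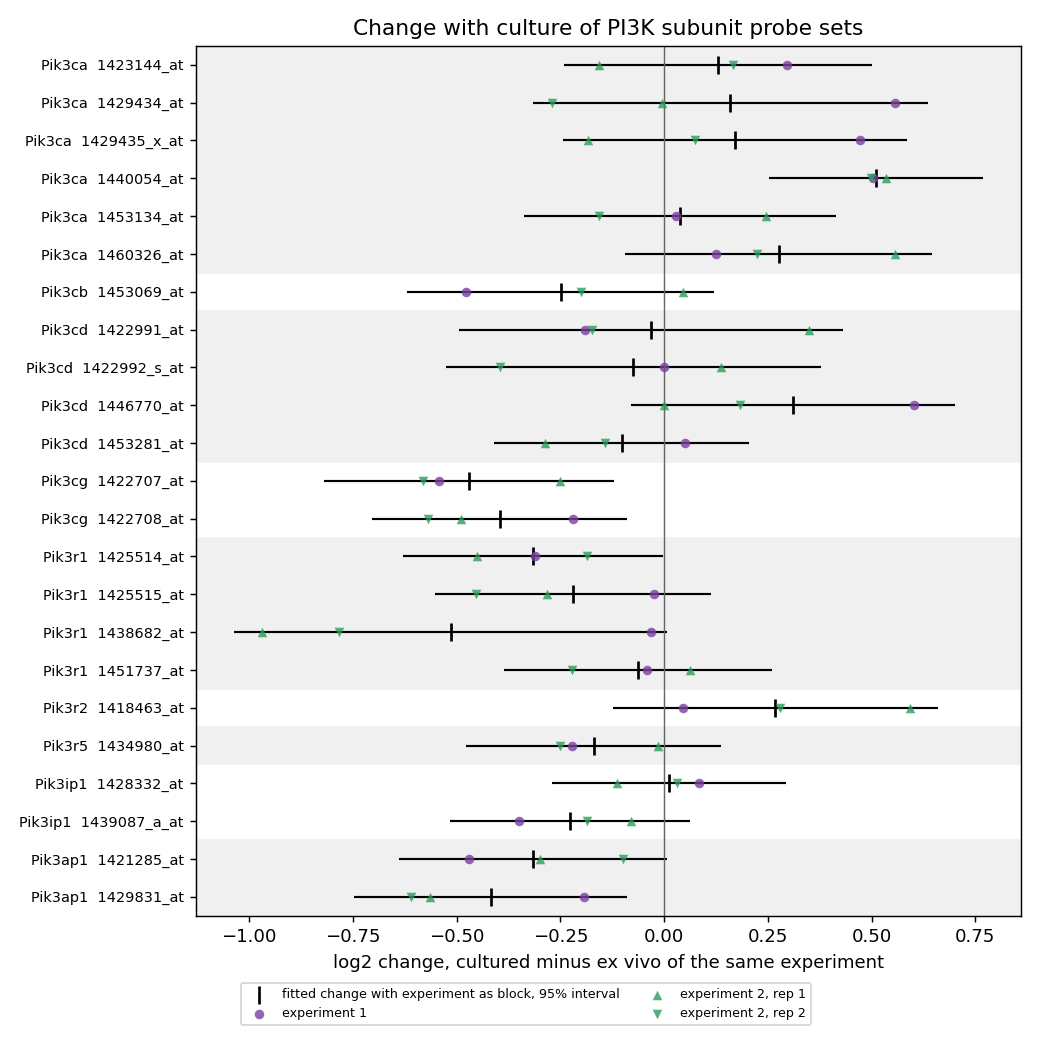
Log2 change with culture (horizontal axis) for the 23 tested probe sets, as the 3 differences between a cultured array and the ex vivo array of its experiment (points) and the limma change with the experiment as a block (black tick) with its 95% interval. All 3 points lie to the left of 0 for both probe sets of Pik3cg and of Pik3ap1, and close together at 0.50, 0.53 and 0.50 for Pik3ca 1440054_at.

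Among the class IA catalytic subunits, Pik3ca, which encodes the α isoform, had 6 tested probe sets, all above the floor of 50 in every array. On 1440054_at its log2 level was 6.20 in ex vivo PCs and 6.70 in cultured PCs of E1, and 6.68 ex vivo and 7.21 and 7.18 cultured in E2. Cultured PCs were above ex vivo PCs in both experiments, and all 3 cultured arrays were above both ex vivo arrays. The change without the block was 0.59 (SE 0.24, 95% interval -0.03 to 1.21, limma adjusted p = 0.78). With the block it was 0.51 (SE 0.10, 95% interval 0.25 to 0.77, limma adjusted p = 0.084), the lowest adjusted p of the 23. The other 5 probe sets of Pik3ca did not show such an agreement between arrays. On 1460326_at the levels were 10.80 ex vivo and 10.92 cultured in E1, and 10.22 ex vivo and 10.78 and 10.45 cultured in E2. This probe set was also higher in all 3 changes, with a block change of 0.28 (95% interval -0.09 to 0.65). For 1423144_at, 1429434_at, 1429435_x_at and 1453134_at the changes were mixed in sign, with block changes from 0.04 to 0.17. The stromal cell markers given above were higher in sum after culture, and their part in the Pik3ca values was not tested.

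Pik3cb, the β isoform, was read by 1 probe set, 1453069_at, close to the floor. Its log2 level was 6.64 ex vivo and 6.16 cultured in E1, and 5.78 ex vivo and 5.82 and 5.58 cultured in E2, so that 1 array of 5 fell below an intensity of 50. Ex vivo and cultured PCs overlapped, and the block change was -0.25 (SE 0.15, 95% interval -0.62 to 0.12).

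Pik3cd, the δ isoform on which B cell receptor signalling mainly relies, has 6 probe sets, of which 4 were tested. On 1422991_at its log2 level was 8.47 ex vivo and 8.28 cultured in E1, and 8.70 ex vivo and 9.05 and 8.52 cultured in E2. On 1453281_at it was 9.63 ex vivo and 9.68 cultured in E1, and 9.63 ex vivo and 9.34 and 9.49 cultured in E2. Neither separated ex vivo from cultured PCs. Of the others, 1422992_s_at ran from 8.0 to 8.53 and 1446770_at from 7.0 to 7.60. The fitted changes of the 4 ran from -0.13 to 0.32 without the block and from -0.10 to 0.31 with it. The remaining probe sets, 1443798_at (log2 level 4.54 to 4.92) and 1458321_at (2.74 to 2.95), were under an intensity of 50 in all arrays, although others for the same gene were not.

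Pik3cg encodes the class IB catalytic subunit γ, which responds to G protein coupled receptors such as those for chemokines. On 1422707_at its log2 level was 11.0 ex vivo and 10.46 cultured in E1, and 11.61 ex vivo and 11.36 and 11.03 cultured in E2. On 1422708_at it was 10.13 ex vivo and 9.91 cultured in E1, and 9.83 ex vivo and 9.34 and 9.26 cultured in E2. Each cultured array was below the ex vivo array of its experiment on both probe sets, but ex vivo and cultured arrays overlapped across the experiments. The block change was -0.47 (SE 0.14, 95% interval -0.82 to -0.12, limma adjusted p = 0.17) on 1422707_at and -0.40 (SE 0.12, 95% interval -0.70 to -0.09, limma adjusted p = 0.19) on 1422708_at. Without the block the changes were -0.36 (SE 0.34) and -0.48 (SE 0.25). The macrophage and neutrophil markers given above were also lower in sum after culture. The sum of 9 tested T and NK cell markers went the other way. It was 1460.8 to 1951.1 ex vivo and 2003.9 to 2499.3 in culture. The part of all these cells in the Pik3cg values was not tested.

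Pik3r1, whose locus encodes the α regulatory subunit of class IA in a long and shorter forms, had 4 probe sets with unlike values. On 1451737_at the log2 level was 10.97 ex vivo and 10.93 cultured in E1, and 11.67 ex vivo and 11.73 and 11.45 cultured in E2, with a block change of -0.06 (SE 0.13). On 1438682_at it was 9.69 ex vivo and 9.66 cultured in E1, and 8.91 ex vivo and 7.94 and 8.13 cultured in E2. The level on this probe set was thus close to that of ex vivo PCs in E1 and lower by 0.97 and 0.78 in E2. The block change was -0.51 (SE 0.21, 95% interval -1.04 to 0.01, limma adjusted p = 0.28). The difference between the changes of the experiments was -0.84 (SE 0.20, limma adjusted p = 0.65) in a fit with 1 residual degree of freedom. Of the 23 probe sets, 0 passed this interaction test, as did 0.0% of all tested probe sets, and 1438682_at was the 1 of 23 with an unadjusted p under 0.05 (2008 of 30477 overall). The log2 levels on 1425514_at (5.86 to 7.04) and 1425515_at (6.85 to 7.30) were also below ex vivo in each change, with block changes of -0.32 (95% interval -0.63 to -0.0018) and -0.22 (95% interval -0.55 to 0.11).

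Pik3r2, the β regulatory subunit, was at a log2 level of 9.29 ex vivo and 9.34 cultured in E1, and of 8.19 ex vivo and 8.78 and 8.47 cultured in E2. It was higher after culture in each change, by 0.05, 0.59 and 0.28, while the groups overlapped because the experiments lay apart, and the block change was 0.27 (SE 0.16, limma adjusted p = 0.43). Pik3r5, the regulatory partner of the γ subunit, was at 7.87 ex vivo and 7.65 cultured in E1, and at 7.66 ex vivo and 7.65 and 7.41 cultured in E2. All cultured arrays were below both ex vivo arrays, the nearest by 0.01, and the block change was -0.17 (SE 0.12, limma adjusted p = 0.52).

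The inhibitor Pik3ip1 binds the catalytic subunit and dampens its activity. On 1428332_at its log2 level was 7.41 ex vivo and 7.49 cultured in E1, and 7.60 ex vivo and 7.49 and 7.64 cultured in E2. On 1439087_a_at it was 7.45 ex vivo and 7.10 cultured in E1, and 7.72 ex vivo and 7.64 and 7.54 cultured in E2. The groups overlapped on both, with block changes of 0.01 (95% interval -0.27 to 0.29) and -0.23 (95% interval -0.51 to 0.06).

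Pik3ap1, which in B cells carries docking sites for the regulatory subunit, was the gene with the lowest unadjusted p without the block. On 1429831_at its log2 level was 7.56 ex vivo and 7.36 cultured in E1, and 7.83 ex vivo and 7.27 and 7.22 cultured in E2. On 1421285_at it was 7.61 ex vivo and 7.14 cultured in E1, and 7.44 ex vivo and 7.15 and 7.35 cultured in E2. Every cultured array was below both ex vivo arrays on both probe sets. The mean on 1429831_at was 7.69 ± 0.20 (SD, n = 2) ex vivo and 7.29 ± 0.07 (SD, n = 3) cultured, a change of -0.41 (SE 0.15, 95% interval -0.78 to -0.03, limma adjusted p = 0.73). With the block it was -0.42 (SE 0.13, limma adjusted p = 0.19), and on 1421285_at it was -0.31 (SE 0.13, limma adjusted p = 0.28). The summed intensity of 14 B cell markers was 14320.3 to 14382.2 ex vivo and 12970.9 to 13960.8 in culture. Its part in these values, and that of the macrophage, neutrophil and T and NK cell markers, was not tested.

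How the subunits varied between the experiments was tested with culture as a covariate. At a limma adjusted p of 0.05, 11 of the 23 probe sets differed between E2 and E1 (47.8%), where 26.8% of all tested probe sets did. Of these, 8 were lower in E2, where 13.8% of all tested were, and 3 were higher, where 13.0% were. None of the 11 passed the test without the ex vivo array of E1, without the cultured array of E1 or without the ex vivo array of E2, while 10 of the 11 passed without rep 1 of E2 (1 other probe set then passed as well) and 8 without rep 2. The share of all tested probe sets that passed under these leave-outs is not given here, so the losses cannot be read as particular to these genes. The study describes independent experiments as done on different days. What else differed between E1 and E2 is not labelled, and such factors cannot be told apart here. The control probe sets at both ends of Actb also separated E1 from E2. Their 3′ over 5′ log2 ratios were 0.31 and 0.77 in E1 and -0.12, -0.11 and -0.01 in E2. Those of Gapdh were 0.74 and 0.63 in E1 and 0.34, 0.30 and 0.28 in E2. Their part in the differences between experiments was not tested.

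**Figure D3:**
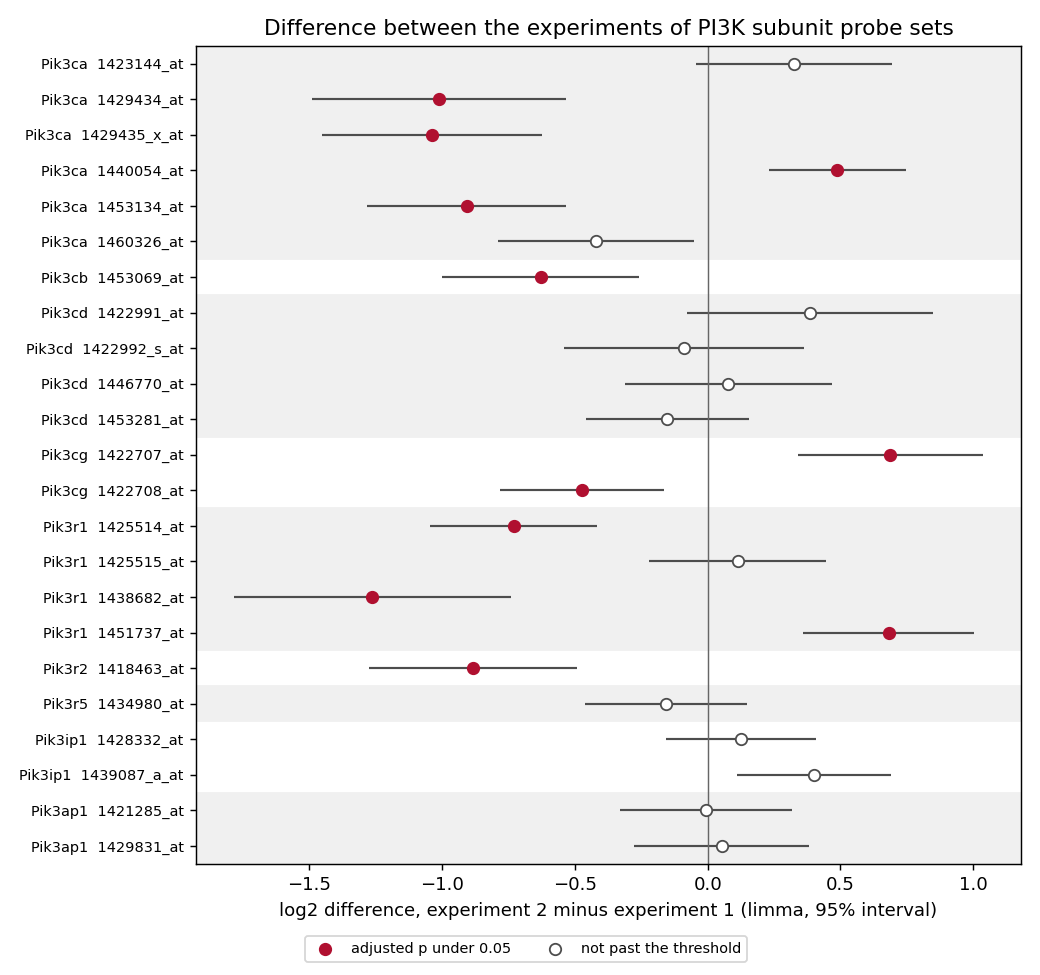
Log2 difference between the experiments (E2 minus E1, culture as covariate, horizontal axis) for the 23 tested probe sets with 95% intervals from limma. Filled red points passed an adjusted p of 0.05. They lie on both sides of 0 for Pik3ca, Pik3cg and Pik3r1, and all points of Pik3cd, Pik3r5, Pik3ip1 and Pik3ap1 are open.

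Of Pik3ca, 3 probe sets were lower in E2 than in E1 and 1 was higher. The log2 level on 1429434_at was 7.44 and 8.0 in E1 and 6.83, 6.82 and 6.56 in E2, a difference of -1.01 (SE 0.19, limma adjusted p = 0.017), and 1429435_x_at (-1.04) and 1453134_at (-0.91) went the same way. In contrast, 1440054_at was higher in E2 by 0.49 (SE 0.10, limma adjusted p = 0.023). The suffix _x_at marks probes that may also match other transcripts. Pik3cg was split as well, with 1422707_at higher in E2 by 0.69 (SE 0.14, limma adjusted p = 0.021) and 1422708_at lower, at -0.47 (SE 0.12, limma adjusted p = 0.041). Of Pik3r1, 1438682_at (-1.26, SE 0.21) and 1425514_at (-0.73, SE 0.13) were lower in E2, and 1451737_at was higher by 0.68 (SE 0.13). Since each of these probe sets reads the same gene, the sign for the gene depends on the probe set.

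Probe sets that passed in both directions were found for 3 of the 6 genes with at least 2 tested probe sets, against 6.84% of 6406 such genes on the array and 18.9% of 1256 genes with at least 4. Of the subunit genes, 3 have at least 4, and 2 of these (Pik3ca and Pik3r1, not Pik3cd) were among them. The single probe sets of Pik3cb (-0.63, SE 0.15, limma adjusted p = 0.031) and Pik3r2 (-0.88, SE 0.16, limma adjusted p = 0.014) were lower in E2. For Pik3cd, Pik3r5, Pik3ip1 and Pik3ap1 no probe set passed. The differences ran from -0.15 to 0.38 for Pik3cd, and Pik3ip1 1439087_a_at was closest to the threshold, at 0.40 (SE 0.12, limma adjusted p = 0.055).

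The other genes of the pathway were taken from 7 lists of 109 genes, of which 93 were tested, each by its brightest probe set. Without the block, 0 were higher and 1 was lower after culture, against 0.0589% of 13578 genes. With the block, 2 were higher and 2 were lower, against 1.74% of genes. The lists were chosen with earlier results of these data known, so these counts do not test the pathway for an excess. The median log2 change without the block was 0.04 for the 93 and -0.06 for all genes. With the block these medians were 0.05 and -0.05. Of the 4, Klf2, Il7r and Pdk4 stood on the list of FoxO target genes (25 tested) and Cdkn1a on that of FoxO factors and AKT substrates (14 tested). Klf2, a transcription factor gene under FoxO control in lymphocytes, was at 9.94 ex vivo and 6.44 cultured in E1, and at 9.68 ex vivo and 6.49 and 6.47 cultured in E2. It fell by 3.34 (SE 0.14, limma adjusted p = 0.018). Klf2 is also an early response gene. Without the block, the count over the lists was 2 when the cultured array of E1 was left out and 0 when any other single array was. It was also 0 with rep 1 and rep 2 of E2 averaged.

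The others passed with the block alone. Il7r, the interleukin-7 receptor chain and a FoxO target, was at 6.61 ex vivo and 4.59 cultured in E1, and at 6.69 ex vivo and 5.06 and 4.98 cultured in E2, a block change of -1.82 (SE 0.13, limma adjusted p = 0.0063). All its cultured levels are under an intensity of 50, so the size of the change is uncertain, and with them set to 50 the difference of the group means is -1.01. Cdkn1a, a cell cycle inhibitor whose protein AKT phosphorylates, was at 8.14 ex vivo and 9.96 cultured in E1, and at 7.65 ex vivo and 8.78 and 9.01 cultured in E2, a block change of 1.49 (SE 0.17, limma adjusted p = 0.023). Pdk4, which encodes a mitochondrial kinase that restrains pyruvate use, was at 4.96 ex vivo and 5.80 cultured in E1, and at 4.95 ex vivo and 6.21 and 6.46 cultured in E2, a block change of 1.15 (SE 0.17, limma adjusted p = 0.042). Its ex vivo levels are under an intensity of 50, and with them set to 50 the difference of the group means is 0.51. The stromal and macrophage markers given above also moved with culture, up and down respectively in sum, and their part in the changes of these 4 genes was not tested.

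**Figure D4:**
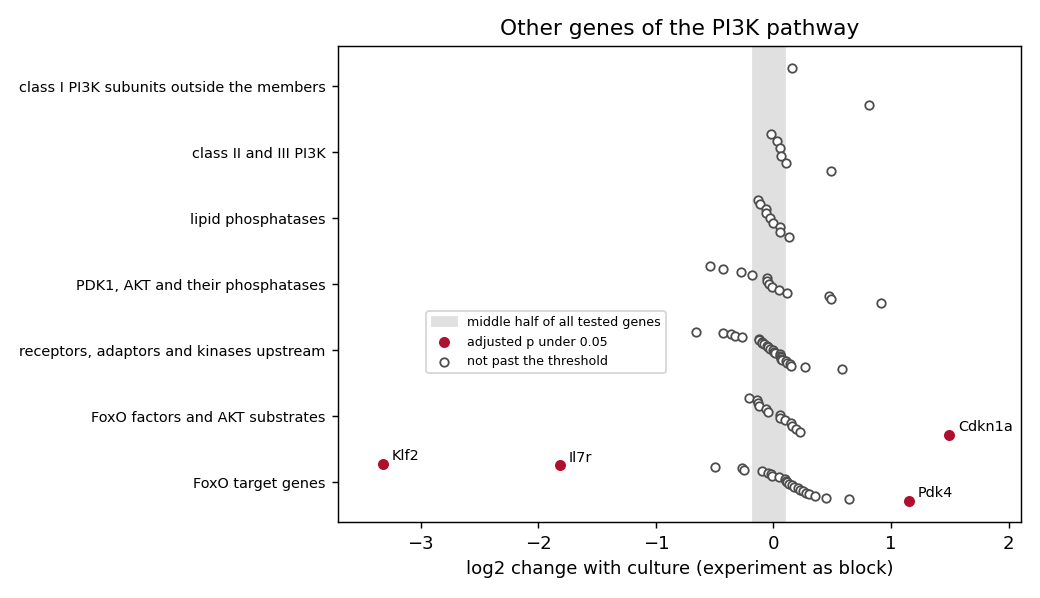
Log2 change with culture (experiment as block, horizontal axis) of the 93 tested genes of the 7 lists of the pathway, 1 point per gene and list. The grey band holds the middle 50% of all 13578 tested genes. The 4 red points passed a limma adjusted p of 0.05, namely Klf2 and Il7r on the left and Cdkn1a and Pdk4 on the right, and the points of the lipid phosphatases lie within or close to the band.

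Foxo1 was at 10.34 ex vivo and 10.39 cultured in E1, and at 9.58 ex vivo and 9.48 and 9.39 cultured in E2. Its levels separated the experiments (-0.87, SE 0.11, limma adjusted p = 0.0066), with a block change with culture of -0.06 (95% interval -0.35 to 0.22). Foxo3 was between 11.10 and 11.44, with a block change of -0.12 (95% interval -0.46 to 0.22). The kinases Akt1 and Akt2 had block changes of -0.01 (95% interval -0.28 to 0.25) and 0.05 (95% interval -0.23 to 0.32). Pdpk1, the kinase that activates AKT, had 0.11 (95% interval -0.16 to 0.39). Inpp5d, the SHIP phosphatase that removes the PI3K product in lymphocytes, lay between 9.53 and 9.67 in all arrays, with a block change of -0.06 (95% interval -0.32 to 0.20).

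None of the following passed either test. Pik3r3, the γ regulatory subunit of class IA, was at 6.13 ex vivo and 6.63 cultured in E1, and at 6.03 ex vivo and 7.0 and 7.15 cultured in E2. It was higher in each change and above both ex vivo arrays in all cultured ones, with a block change of 0.81 (SE 0.16, 95% interval 0.42 to 1.21, limma adjusted p = 0.078). Pik3r6, a regulatory partner of the γ catalytic subunit, had a block change of 0.16 (SE 0.12). Pik3c2a, a class II PI3K, had 0.49 (SE 0.12, limma adjusted p = 0.13), and Uvrag, a partner of the class III enzyme, had 0.07 (SE 0.13). Of the lipid phosphatases, Inpp5e had 0.06 (SE 0.14) and Mtmr3 had -0.06 (SE 0.13). Trib3, an AKT-binding pseudokinase, was at 8.08 ex vivo and 9.83 cultured in E1 but at 7.81 ex vivo and 8.10 in each cultured array of E2. The kinase Sgk1, which like AKT is activated by Pdpk1, had 0.49 (SE 0.13, limma adjusted p = 0.13). Upstream of PI3K, the kinase gene Src had 0.58 (SE 0.10, limma adjusted p = 0.066) and the receptor gene Kit had -0.66 (SE 0.14, limma adjusted p = 0.099). The stromal and macrophage markers given above moved in sum with culture, and their part in the changes of these genes was not tested.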

How the data were processed

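The 5 arrays were grouped by condition and experiment from their labels. Per the methods, the authors used RMA in the affy R package, and GCOS appears in the submitters' processing notes, without versions. The deposited intensities are linear (4.94 to 26947.18) and were converted here to log2. Of 45101 probe sets, 64 controls were left out, 34945 had 1 gene symbol in the platform annotation (932 several, 9160 none), and 30477 that reached 50 in 2 or more arrays entered limma (version 3.58.1, R 4.3.3; lmFit, eBayes, Benjamini-Hochberg adjustment over all of them). Symbols were updated through RefSeq (GRCm38.p6), also the source of the sequences. The samples were taken as paired by experiment, because labels of both groups carry the same experiment numbers and the study describes independent experiments. Deviations from the group means correlated at 0.75 in E1 and at 0.56 and 0.72 in E2, and the 2 ex vivo deviations mirror each other. Deviations cancel within each group, so these values are not separate checks. Any difference between the experiments can give this pattern, so it does not show that the cells themselves were paired. Tests took culture alone, culture with the experiment as block, the experiment, and the interaction. Genes named beyond the 9 were up to 4 that passed in each list or else up to 2 with the largest change, plus Foxo1, Foxo3, Akt1, Akt2, Inpp5d and Pdpk1. Listed genes without a tested probe set were not analysed here. The members and lists were chosen with earlier results of these data known. The fits were tested on simulated data with planted changes larger than any fitted with culture for the 9 genes. That check does not cover changes of the size given here. Alternatives were averaging rep 1 and rep 2, the floor, the scaling, limma's moderation, the threshold, and each array left out.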

Additional observations from a re-analysis of the deposited data

How the results depend on the processing

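The count of PI3K subunit probe sets that changed with culture was 0 under all 17 alternatives tried, among them the experiment as replicate block, and the interaction count was 0 under all 7. The count that differed between experiments was 11, and it was 9 to 11 under the filters, scalings, moderation, threshold and averaging. Leaving out 1 array gave 0 to 11, with 0 without the ex vivo or the cultured array of E1 or the ex vivo array of E2. The count of pathway genes that changed with culture was 1. It was 4 with the replicate block, 0 with rep 1 and rep 2 of E2 averaged, 2 with both, and 5 at an unadjusted p under 0.01. Leaving out 1 array gave 0 to 2. With the block and without rep 1 or rep 2 of E2, chosen after seeing the data, it was 3 and 2. These causes were not tested. No change that passed turned its sign. Of changes that did not pass, 12 of 23 with culture and 5 of 12 between the experiments changed sign under at least 1 alternative. At a floor of 100, 18 probe sets were above it in all arrays, against 22 at 50.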

Other observations

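The probe sets whose log2 levels ran most like those of Pik3cg and Pik3ap1 over the 5 arrays are given as a description, since so few arrays let many probe sets correlate highly. For Pik3cg 1422707_at these were C1ql2 (Pearson's r 0.9986), Tmem250-ps (0.9983) and Wasf3 (0.9983), and 347 probe sets of other genes had an r above 0.95. For Pik3ap1 1429831_at these were Alcam (0.9960), Sox18 (0.9959) and B630019K06Rik (0.9958), and 159 had an r above 0.95. Alcam, an adhesion molecule gene, was at 9.95 ex vivo and 9.69 cultured in E1, and at 10.19 ex vivo and 9.60 and 9.58 cultured in E2. Wasf3 and B630019K06Rik were each under an intensity of 50 in 3 of the 5 arrays. All the arrays share their experiment with at least 1 other, so these points are not independent.

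Of the 93 tested genes of the wider pathway, 18 were higher and 17 were lower in E2 than in E1 (37.6%, against 25.1% of 13578 genes, limma with culture as covariate). Among them was the AKT substrate Gsk3a, a kinase gene, at 9.60 and 9.47 in E1 and at 7.29, 7.22 and 6.84 in E2 (-2.38, SE 0.15, limma adjusted p = 0.0025), named after its values were seen. Since the lists were chosen with earlier results of these data known, their share does not test the pathway for an excess.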
